A study of Homo sapiens with 8 samples.

Results

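The genes that control phosphorylation of eIF2 alpha were followed in RNA-seq of auxin-resistant leukemia cells. The group holds 9 genes, listed by symbol, out of 60754 rows in the expression table, and each of the 9 was found once. They are the kinases EIF2AK1, EIF2AK2, EIF2AK3 and EIF2AK4, the phosphatase subunits PPP1R15A and PPP1R15B, the substrate EIF2S1, the exchange factor subunit EIF2B5 and the kinase co-activator GCN1. All 9 were among the 15614 genes that reached a value of 1 TPM (transcripts scaled to a common total) in at least 1 library and were tested.

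The cells were SEM, a human KMT2A-rearranged B-cell leukemia line. Both CTCF alleles carry a miniAID-mClover3 degron tag and OsTIR1(F74G) with a Zeocin resistance gene is expressed from a lentiviral MND promoter. There were 8 libraries, 2 for each of 4 groups: untreated parental cells and resistant cells of the clones C17.2 and C3.2. Resistant cells were kept for 36 days in the auxin analog 5-Ph-IAA at 1 μM together with Zeocin at 100 μg/ml, and then taken out of both drugs. Each clone came from a single edited cell, so a group describes 1 clone and not the line. Per the study, resistant cells of C17.2 also made a truncated CTCF without the tag and those of C3.2 carried a missense change in the tag. The labels do not say whether the 2 libraries of a group came from separate cultures, so p-values measure the spread between these libraries. The library titles open with a number whose run differs between the clones, and the labels do not say what it stands for. Clone and any difference that goes with these numbers cannot be told apart.

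All 6 markers of the B lineage were present, from CD79B at 4.33 to 15.3 TPM to PAX5 at 116 to 193 TPM, and their summed level was 615 to 657 TPM in C17.2 parental, 619 to 624 TPM in C17.2 resistant, 549 to 568 TPM in C3.2 parental and 521 to 559 TPM in C3.2 resistant libraries. Within this sum single markers moved: 3 of the 6 passed as lower in C17.2, and 3 as lower and 1 as higher in C3.2. Over all genes tested, 13.9% passed as lower in C17.2, and 6.9% as lower and 4.46% as higher in C3.2. The fall of CD79A in C3.2 passed in only 2 of 8 alternative analyses. CD79B fell in both clones, by 1.51 (adjusted p = 7.26e-05, limma) and 1.03 (adjusted p = 0.00112, limma) on the log2 scale, and PAX5 rose in C3.2 by 0.27 (adjusted p = 0.0229, limma). The rise of PAX5 missed the threshold with the libraries of C3.2 alone (adjusted p = 0.0813, limma). It also missed the threshold in several analyses that left out a library. The part of these markers in the results below was not tested. The T-cell genes CD3E, CD3G and CD8A were at or under 0.25 TPM while TRAC was at 38.6 to 49.2 TPM. Summed myeloid markers reached at most 4.10 TPM and summed erythroid markers at most 0.52 TPM. TPM has a fixed sum, so depth is unknown here and counting error was not estimated. Scaling factors between libraries ranged from 0.893 to 1.16. In bulk RNA, fewer cells that express a gene and less RNA per cell cannot be told apart.

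Phosphorylation of the alpha subunit of eIF2 is the entry point of the integrated stress response. HRI (EIF2AK1) responds to heme shortage and mitochondrial stress, PKR (EIF2AK2) to double-stranded RNA, PERK (EIF2AK3) to unfolded protein in the endoplasmic reticulum and GCN2 (EIF2AK4) to amino acid shortage. Phosphorylated eIF2 blocks its exchange factor eIF2B, which lowers general translation and raises translation of mRNAs with upstream open reading frames such as ATF4, and PPP1R15A (GADD34) and PPP1R15B (CReP) bring protein phosphatase 1 to eIF2 alpha to reverse the mark. All values below are RNA levels. Phosphorylation and translation were not analysed here.

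TPM is corrected for transcript length, so levels of different genes can be set side by side within a library. EIF2S1 was the most abundant of the 9 genes and GCN1 the next in 8 of 8 libraries. EIF2S1 lay between 45.7 and 68.4 TPM and GCN1 between 28.5 and 44.7 TPM. In the middle were EIF2B5 at 21.7 to 28.5 TPM, PPP1R15B at 21.6 to 28.9 TPM, EIF2AK1 at 22.2 to 26.3 TPM and EIF2AK2 at 17.17 to 30.6 TPM. These neighbors were not separated: PPP1R15B was above EIF2B5 in 4 of 8 libraries and EIF2AK1 above PPP1R15B in 3 of 8. EIF2AK3 at 9.59 to 13.5 TPM and EIF2AK4 at 8.24 to 11.1 TPM were at the bottom, EIF2AK3 being the higher in 6 of 8 libraries. PPP1R15A had the widest range, 8.26 to 28.2 TPM, and its place among the 9 moved from 3 to 9 with the group. Its highest library was 3.42 times its lowest, against 1.78 times or less for each of the other genes.

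**Figure D1:**
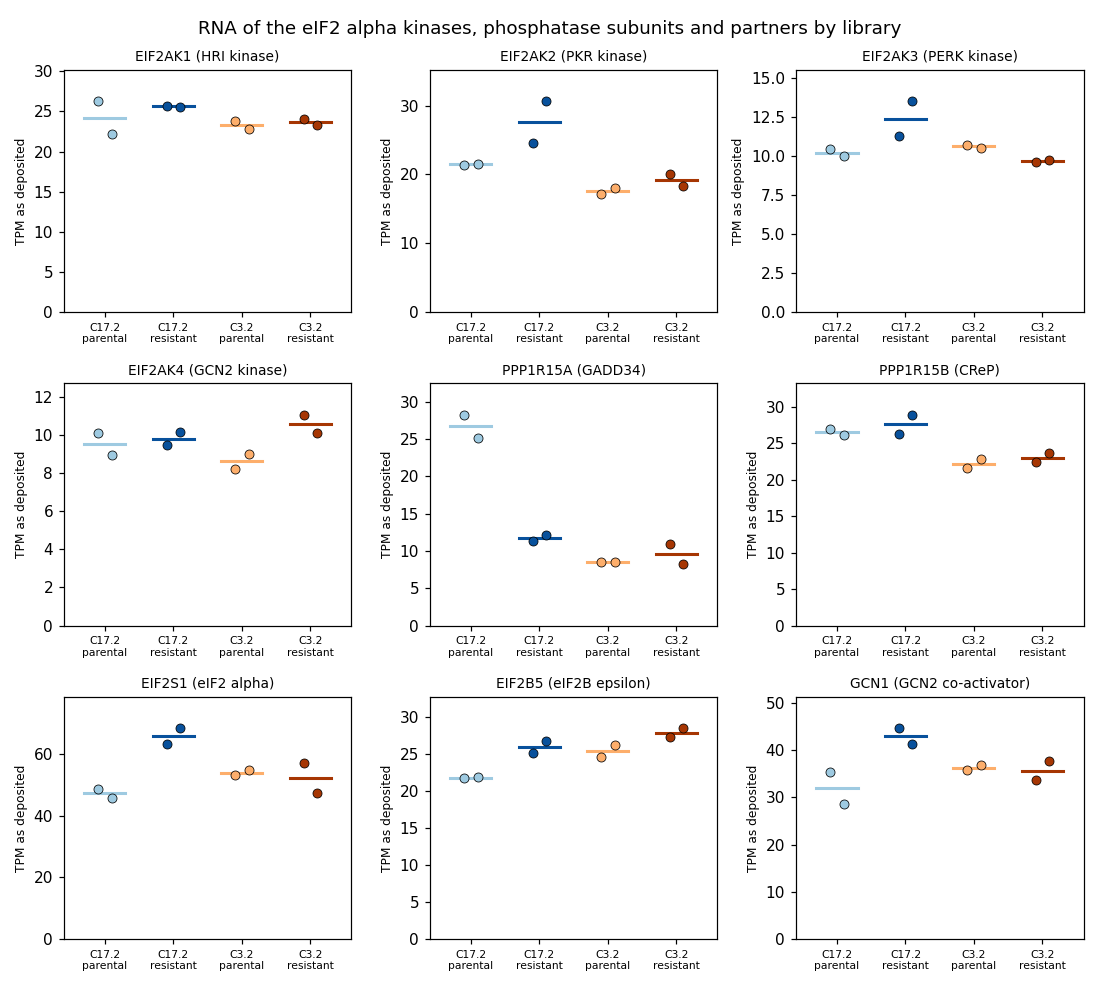
Deposited TPM (vertical axis, from 0) of the 9 genes in each of the 8 libraries, with the groups on the horizontal axis. Points are libraries and bars are means of 2 libraries. PPP1R15A stands at 25.1 and 28.2 TPM in C17.2 parental cells and at 12.1 TPM or below in the other 6 libraries.

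PPP1R15A (ENSG00000087074.8, chr19:48872212-48876059 on the plus strand of hg38), the stress-inducible phosphatase subunit, fell in resistant cells of C17.2. Its values were 28.2 and 25.1 TPM in the parental libraries and 11.4 and 12.1 TPM in the resistant libraries of that clone. Both resistant libraries lay below both parental libraries. In C3.2 it was at 8.51 and 8.53 TPM in parental and at 10.97 and 8.26 TPM in resistant libraries. There the groups overlapped, and both states were in the low range that C17.2 reached only in resistant cells. On the log2 scale the change was -1.26 (with a 95% confidence interval of -1.50 to -1.02) in C17.2, to 0.417 of the parental level (adjusted p = 0.000436, limma), and 0.09 (-0.15 to 0.32) in C3.2 (adjusted p = 0.626, limma). Fold changes were computed on log2(scaled TPM + 1), which understates changes of low genes. The fall in C17.2 passed the threshold of 0.05 in 8 of 8 alternative analyses and in 8 of 8 analyses that left out 1 library, with log2 fold changes from -1.33 to -1.12.

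PPP1R15B (ENSG00000158615.9, chr1:204396492-204411887, minus strand), the constitutive partner that takes the same phosphatase to the same substrate, did not pass the test in either clone. It was at 27.0 and 26.2 TPM in parental and 26.3 and 28.9 TPM in resistant libraries of C17.2. In C3.2 the values were 21.6 and 22.8 TPM in parental and 22.4 and 23.7 TPM in resistant libraries. As deposited, parental and resistant values overlapped in both clones. After scaling, the C17.2 values were 25.7 and 26.5 in parental and 23.4 and 25.0 in resistant libraries, without overlap. Those of C3.2 still overlapped. Log2 fold changes were -0.10 (-0.26 to 0.05, adjusted p = 0.281, limma) in C17.2 and -0.01 (-0.17 to 0.14, adjusted p = 0.936, limma) in C3.2, and the sign in each clone changed with the scaling of the libraries. The ratio of PPP1R15A to PPP1R15B within a library, from which library scaling cancels, was 1.05 and 0.960 in C17.2 parental libraries and 0.433 and 0.420 in resistant libraries. In C3.2 the ratio was 0.395 and 0.374 in parental and 0.491 and 0.349 in resistant libraries. RNA of the 2 regulatory subunits was thus near parity only in parental cells of C17.2, and the 3 catalytic subunits PPP1CA, PPP1CB and PPP1CC, at 60.5 to 111 TPM, did not pass the test in either clone.

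PPP1R15A is a known target of ATF4 and related factors, and EIF2AK2 of interferon signaling, so the promoters were searched for the elements these pathways use. RefSeq promoter windows (GRCh38.p14, 250 bases before to 50 after the start) were found for 8 of the 9 genes. On both strands, 3 motifs were sought: the C/EBP-ATF response element TGATGNAA, held by 3.62% of all 35116 promoters of that length, the cAMP response element TGACGTCA, its own reverse complement, held by 1.85%, and the interferon response element core GAAANNGAA, held by 8.11%. Of the 8 promoters, 3 held 1 match each, and no match overlapped another. The windows of the inducible and the constitutive phosphatase subunit matched different motifs, with 1 match each. The 30 bases around each match follow, read along the gene's strand, with the match in capitals.
PPP1R15A, cAMP response element, chr19:48872352-48872381, plus strand: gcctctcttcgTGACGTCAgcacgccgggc
PPP1R15B, C/EBP-ATF response element, chr1:204412026-204412055, minus strand: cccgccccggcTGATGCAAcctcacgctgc
EIF2AK2, interferon response element core, chr2:37156967-37156996, minus strand: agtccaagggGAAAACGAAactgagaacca
Distances were counted from the RefSeq start, which is not the Gencode gene start behind the positions given with each gene. The first base of the match lay 58 bases before the RefSeq start in PPP1R15A, 227 bases before it in PPP1R15B and 6 bases before it in EIF2AK2. By the Gencode positions, the matches of PPP1R15A and EIF2AK2 lie inside the gene and that of PPP1R15B upstream of it. These are letter matches, and binding of any factor to them was not analysed here.

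EIF2S1 (ENSG00000134001.13, chr14:67360328-67386516, plus strand), which encodes the phosphorylated subunit itself, rose in resistant cells of C17.2. It was at 48.8 and 45.7 TPM in parental and at 63.2 and 68.4 TPM in resistant libraries of that clone, without overlap. In C3.2 it was at 53.2 and 54.7 TPM in parental and at 57.0 and 47.4 TPM in resistant libraries. As deposited, this resistant pair spanned the parental pair. After scaling, the C3.2 values were 59.5 and 59.3 in parental and 58.4 and 51.2 in resistant libraries, the resistant pair being lower without overlap. The log2 fold change was 0.31 (0.15 to 0.47, adjusted p = 0.0167, limma) in C17.2, a fold of 1.24, and -0.12 (-0.28 to 0.04, adjusted p = 0.306, limma) in C3.2. The rise in C17.2 passed in 8 of 8 alternatives but was lost when 1 of 3 libraries was left out: adjusted p was 0.0824 without parental replicate 1, 0.0856 without parental replicate 2 and 0.0906 without resistant replicate 2 (limma), with log2 fold changes of 0.31, 0.30 and 0.28. In C3.2 the value was -0.21 and passed (adjusted p = 0.0488, limma) without resistant replicate 1.

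EIF2B5 (ENSG00000145191.15, chr3:184135038-184146127, plus strand), the catalytic subunit of the exchange factor that phosphorylated eIF2 blocks, did not pass the test in either clone. It was at 21.7 and 21.9 TPM in parental and 25.1 and 26.8 TPM in resistant libraries of C17.2, and at 24.6 and 26.2 TPM in parental and 27.3 and 28.5 TPM in resistant libraries of C3.2. Resistant libraries were the higher in both clones as deposited, but log2 fold changes after scaling were 0.08 (-0.07 to 0.23, adjusted p = 0.367, limma) and 0.06 (-0.09 to 0.22, adjusted p = 0.551, limma). With TPM as deposited, EIF2B5 passed in C17.2 with a log2 fold change of 0.24 (adjusted p = 0.0262, limma). That scaling moved the median of all genes by 0.13 in C17.2. The ratio of EIF2S1 to EIF2B5 was 2.25 and 2.09 in parental and 2.52 and 2.55 in resistant libraries of C17.2. In C3.2 it was 2.16 and 2.08 in parental and 2.09 and 1.66 in resistant libraries.

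None of the 4 kinases passed the test in either clone (limma), and of these only EIF2AK4 in C3.2 had an unadjusted p under 0.05. Of all 15614 genes tested, 6135 had an unadjusted p under 0.05 in C17.2 and 4307 in C3.2 (limma). Their summed RNA, as deposited, was 68.2 and 62.6 TPM in C17.2 parental and 71.0 and 79.9 TPM in C17.2 resistant libraries. In C3.2 the sum was 59.97 and 60.4 TPM in parental and 64.7 and 61.6 TPM in resistant libraries. These sums were not scaled, and the scaling factors of C17.2 were 1.05 and 0.988 in parental and 1.12 and 1.16 in resistant libraries. By mean of each of the 4 groups, EIF2AK1 made up 34.1% to 38.8% of the sum, EIF2AK2 29.2% to 36.5%, EIF2AK3 15.3% to 17.7% and EIF2AK4 13.01% to 16.8%.

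EIF2AK1 (ENSG00000086232.13, chr7:6022247-6059175, minus strand), the heme-regulated kinase, had the smallest ratio of highest to lowest library among the 9 genes, 1.18. It was at 26.3 and 22.2 TPM in parental and 25.7 and 25.6 TPM in resistant libraries of C17.2, and at 23.8 and 22.8 TPM in parental and 24.0 and 23.4 TPM in resistant libraries of C3.2. The groups overlapped in both clones, with log2 fold changes of -0.07 (-0.23 to 0.09, adjusted p = 0.474, limma) and -0.04 (-0.20 to 0.12, adjusted p = 0.724, limma), whose signs changed with the scaling. It overlaps AIMP2, which lies on the opposite strand and was at 9.05 to 14.9 TPM. Whether strand was used in counting is not given in the sources used here, so reads in the overlap may be shared.

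EIF2AK2 (ENSG00000055332.18, chr2:37099210-37157522, minus strand), the double-stranded RNA sensor and itself an interferon-induced gene, varied most among the kinases. It was at 21.4 and 21.5 TPM in parental and at 24.6 and 30.6 TPM in resistant libraries of C17.2. For C3.2 the values were 17.17 and 18.0 TPM in parental and 20.0 and 18.4 TPM in resistant libraries. Resistant libraries were above parental libraries in both clones, but the 2 resistant libraries of C17.2 were far apart. Log2 fold changes were 0.18 (-0.03 to 0.40, adjusted p = 0.178, limma) and 0.06 (-0.16 to 0.27, adjusted p = 0.734, limma). In C17.2 the value was 0.32 and passed without resistant replicate 1 (adjusted p = 0.0285, limma), and was 0.34 with TPM as deposited (adjusted p = 0.0462, limma). GPATCH11, on the opposite strand, overlaps EIF2AK2 and was at 8.97 to 12.7 TPM.

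EIF2AK3 (ENSG00000172071.13, chr2:88556741-88691518, minus strand), the endoplasmic reticulum kinase, was at 10.4 and 9.98 TPM in parental and 11.3 and 13.5 TPM in resistant libraries of C17.2. In the other clone it was at 10.7 and 10.5 TPM in parental and 9.59 and 9.77 TPM in resistant libraries. As deposited, the resistant pair was thus above the parental pair in C17.2 and below it in C3.2, with neither difference past the threshold. After scaling, the C17.2 values were 9.93 and 10.11 in parental and 10.06 and 11.69 in resistant libraries, which overlapped. In C3.2 the scaled resistant pair was still below the parental pair. Log2 fold changes were 0.10 (-0.08 to 0.29, adjusted p = 0.373, limma) and -0.18 (-0.37 to 0.00, adjusted p = 0.188, limma).

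EIF2AK4 (ENSG00000128829.12, chr15:39934115-40035591, plus strand), the amino acid sensor, was at 10.1 and 8.96 TPM in parental and 9.45 and 10.2 TPM in resistant libraries of C17.2. These overlapped as deposited. After scaling, the C17.2 values were 9.62 and 9.07 in parental and 8.42 and 8.78 in resistant libraries, the resistant pair being lower without overlap. In C3.2 EIF2AK4 was at 8.24 and 9.02 TPM in parental and 11.1 and 10.1 TPM in resistant libraries, without overlap before or after scaling. Log2 fold changes were -0.11 (-0.25 to 0.03, adjusted p = 0.229, limma) and 0.21 (0.07 to 0.35, adjusted p = 0.0734, limma). In C3.2 it passed only when TPM was rescaled to protein-coding genes, with a log2 fold change of 0.30 (adjusted p = 0.0223, limma).

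GCN1 (ENSG00000089154.11, chr12:120127202-120194715, minus strand), the ribosome-bound co-activator that GCN2 needs, was at 35.5 and 28.5 TPM in parental and 44.7 and 41.4 TPM in resistant libraries of C17.2, without overlap. In C3.2 it was at 35.7 and 37.0 TPM in parental and 33.7 and 37.7 TPM in resistant libraries, which overlapped. Log2 fold changes were 0.26 (0.01 to 0.52, adjusted p = 0.113, limma) and -0.09 (-0.34 to 0.16, adjusted p = 0.621, limma). With TPM as deposited, the value in C17.2 was 0.42 and passed (adjusted p = 0.0271, limma). The ratio of the kinase EIF2AK4 to GCN1 was 0.285 and 0.314 in parental and 0.212 and 0.245 in resistant libraries of C17.2, and 0.231 and 0.244 in parental and 0.328 and 0.268 in resistant libraries of C3.2. The kinase was therefore lower relative to its co-activator in resistant cells of C17.2 and higher in those of C3.2, in each case without overlap between the pairs. For these ratios, with 2 libraries on each side, the smallest exact permutation p possible is 0.333.

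**Figure D2:**
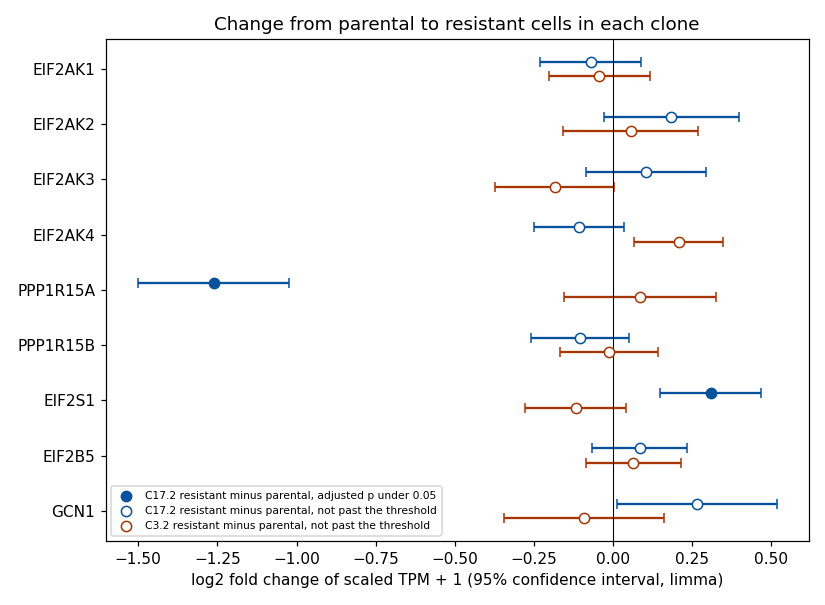
Log2 fold change of scaled TPM + 1 from parental to resistant cells (horizontal axis) of the 9 genes (vertical axis) in each clone, with 95% confidence intervals from limma. Filled points passed the adjusted threshold of 0.05: PPP1R15A at -1.26 and EIF2S1 at 0.31, both in C17.2.

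By count, 2 of the 9 genes passed in C17.2, where 27.3% of all genes tested passed, 13.4% as higher and 13.9% as lower. One way each, the genes were EIF2S1 and PPP1R15A, so the share of the 9 was not above that of all genes. In C3.2, 0 of the 9 passed (limma), where 11.4% of all genes did, 4.46% as higher and 6.9% as lower. There EIF2AK4 alone of the 9 had an unadjusted p under 0.05 in limma, beside 4307 of all 15614 genes tested. With protein-coding rescaling 1 of the 9 passed, and with each of the other scalings 0 passed.

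The difference between the clones' changes, tested as an interaction, passed for 2 of the 9 genes, where 9.9% of all genes passed. For PPP1R15A the change in C17.2 minus that in C3.2 was -1.35 (-1.69 to -1.01, adjusted p = 0.00387, limma), and it passed in 7 of 7 alternatives and without each library in turn. For EIF2S1 the difference was 0.43 (0.20 to 0.65, adjusted p = 0.0390, limma). This call passed in 3 of 7 alternatives and in 2 of 8 analyses that left out a library: only without C3.2 resistant replicate 1 (0.52) or replicate 2 (0.33) did it pass, and adjusted p was between 0.0811 and 0.129 without any of the other 6 libraries (limma). EIF2AK4 at -0.32 (adjusted p = 0.0649, limma), EIF2AK3 at 0.29 (adjusted p = 0.159, limma) and GCN1 at 0.36 (adjusted p = 0.186, limma) did not pass.

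The 2 parental clones already differed, and this comparison shares its parental libraries with those above. Of the 9 genes, 3 passed between parental C3.2 and parental C17.2, where 22.5% of all genes passed. PPP1R15A was lower in C3.2 by a log2 value of -1.39 (-1.63 to -1.15, adjusted p = 0.000523, limma), in 7 of 7 alternatives and without each library in turn. EIF2B5 was higher in C3.2 by 0.37 (0.22 to 0.52, adjusted p = 0.00867, limma), and missed the threshold without C17.2 parental replicate 1 (adjusted p = 0.0588, limma) and without C3.2 parental replicate 2 (adjusted p = 0.0618, limma). EIF2S1 was higher in C3.2 by 0.35 (0.19 to 0.51, adjusted p = 0.0131, limma), but missed the threshold without any 1 of the 4 parental libraries (adjusted p between 0.0731 and 0.0797, limma) and with TPM as deposited (0.19, adjusted p = 0.195, limma). GCN1, at 0.35 (adjusted p = 0.0589, limma), passed without C3.2 resistant replicate 1 (adjusted p = 0.0422, limma) or replicate 2 (adjusted p = 0.0448, limma), and EIF2AK3 was at 0.21 (adjusted p = 0.111, limma). In each of these values, clone and title number cannot be told apart.

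The other subunits of eIF2 fell in resistant cells of both clones. EIF2S2, the beta subunit, was at 45.9 and 44.1 TPM in parental and 30.95 and 32.4 TPM in resistant libraries of C17.2, and at 30.7 and 29.96 TPM in parental and 26.3 and 23.6 TPM in resistant libraries of C3.2. EIF2S3, the gamma subunit that binds GTP and initiator tRNA, was at 262 and 253 TPM in parental and 165 and 172.3 TPM in resistant libraries of C17.2. In C3.2 EIF2S3 was at 186 and 195 TPM in parental and 164 TPM in each of the resistant libraries. Both genes were lower in every resistant library than in the parental libraries of the same clone. EIF2S2 fell by 0.65 (adjusted p = 0.000386, limma) and 0.34 (adjusted p = 0.0111, limma) on the log2 scale in C17.2 and C3.2, and EIF2S3 fell by 0.77 (adjusted p = 0.000110, limma) and 0.28 (adjusted p = 0.0121, limma). In C3.2 each passed in 6 of 8 alternatives. There both missed the threshold without parental replicate 1 (adjusted p = 0.0781 and 0.0742, limma), and EIF2S3 also without parental replicate 2 (adjusted p = 0.0726, limma). EIF2S3 has a near-identical copy, EIF2S3B, so reads may be split between them.

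The subunits are used in equal numbers in the eIF2 complex, and the ratios between their RNAs, chosen after the values were seen, shifted. EIF2S2 to EIF2S1 was 0.940 and 0.966 in C17.2 parental and 0.490 and 0.474 in C17.2 resistant libraries. In C3.2 it was 0.577 and 0.548 in parental and 0.461 and 0.497 in resistant libraries. EIF2S3 to EIF2S1 was 5.37 and 5.55 in parental and 2.61 and 2.52 in resistant libraries of C17.2, without overlap, and 3.50 and 3.56 in parental and 2.87 and 3.45 in resistant libraries of C3.2. Parental cells of C17.2 thus held the most beta and gamma subunit RNA for each alpha subunit RNA.

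**Figure D3:**
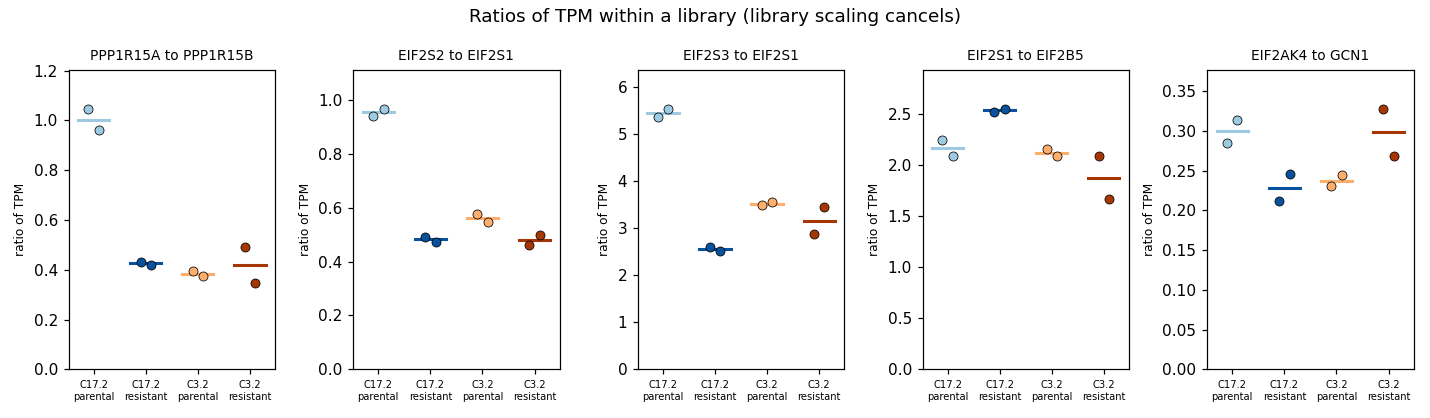
Ratios of TPM within each of the 8 libraries (vertical axes, from 0), from which library scaling cancels, by group on the horizontal axes. Points are libraries and bars are means of 2 libraries. PPP1R15A to PPP1R15B was near 1 (0.960 and 1.05) in C17.2 parental cells and at most 0.491 in the other 6 libraries.

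In the wider list of 10 genes of the eIF2 and eIF2B cycle, 2 rose and 2 fell in C17.2 and 2 fell in C3.2, with a median log2 fold change of 0.06 and -0.06 beside a median of 0 over all genes tested. Over all genes tested, 27.3% passed in C17.2 and 11.4% in C3.2. The 2 falls in C3.2, EIF2S2 and EIF2S3, became 0 with TPM as deposited and with the libraries of that clone alone. Beside EIF2S1, the gene that rose in C17.2 was EIF2B3, an exchange factor subunit, at 10.2 and 9.47 TPM in parental and 14.8 and 14.2 TPM in resistant libraries (log2 fold change 0.37, adjusted p = 0.00450, limma). EIF2B1, EIF2B2 and EIF2B4, the remaining exchange factor subunits, did not pass in either clone, with log2 fold changes from -0.12 to 0.03. EIF5, which drives GTP hydrolysis by eIF2, was at 0.30 in C17.2 (adjusted p = 0.0729, limma) and -0.09 in C3.2 (adjusted p = 0.626, limma).

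Among the 10 regulators of the kinases, 9 were tested, 3 rose and 0 fell in C17.2 and 1 rose and 0 fell in C3.2 (median log2 fold change 0.13 and 0.08), where 13.4% and 4.46% of all genes tested passed as higher. HSPA5 (BiP), the chaperone that holds PERK inactive, was at 26.9 and 24.7 TPM in parental and 63.4 and 66.5 TPM in resistant libraries of C17.2. In C3.2 HSPA5 was at 45.5 and 48.6 TPM in parental and 60.3 and 57.8 TPM in resistant libraries. It rose in both clones, by 1.14 (adjusted p = 2.39e-05, limma) and 0.26 (adjusted p = 0.0137, limma) on the log2 scale, and more in C17.2 (difference 0.88, adjusted p = 0.000832, limma). The rise in C3.2 missed the threshold with the libraries of that clone alone (adjusted p = 0.0802, limma), without parental replicate 1 (adjusted p = 0.0887, limma) and without parental replicate 2 (adjusted p = 0.0563, limma). The other 2 that rose in C17.2 were TARBP2, which binds and inhibits PKR (0.44, adjusted p = 0.00353, limma), and DNAJC3, an inhibitor of PKR and PERK (0.26, adjusted p = 0.0292, limma). DNAJC3 passed in 6 of 8 alternatives and in 2 of 8 analyses that left out a library. PRKRA, an activator of PKR, ADAR, which edits double-stranded RNA, and DELE1 and OMA1, which pass mitochondrial stress to HRI, did not pass in either clone. IMPACT, an inhibitor of GCN2, was listed at 0 in all 8 libraries.

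**Figure D4:**
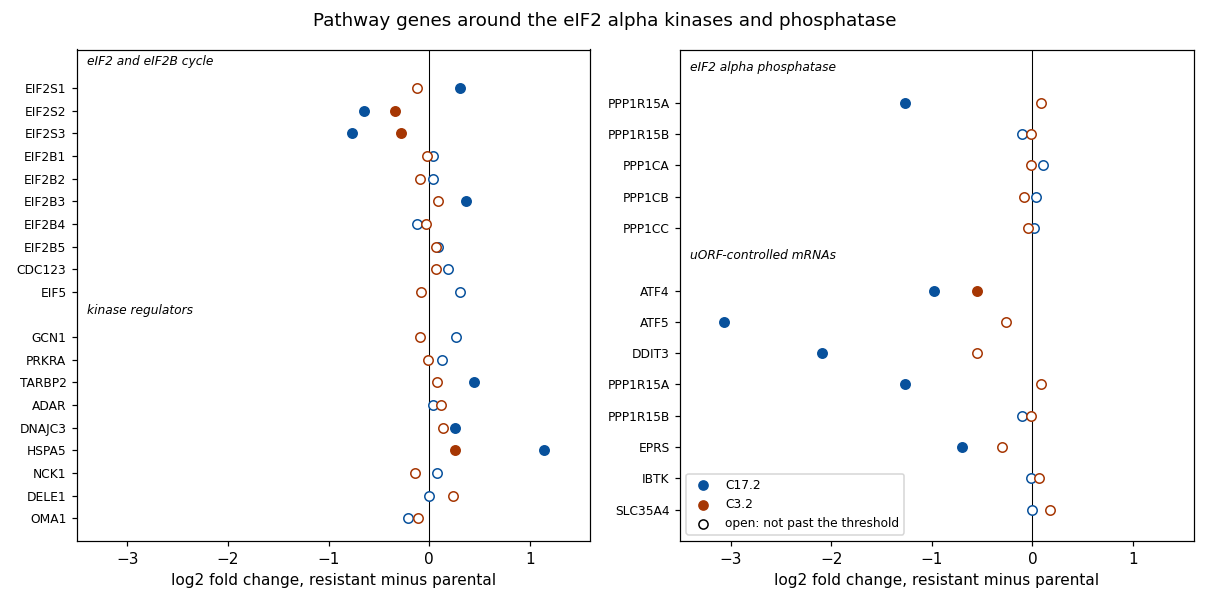
Log2 fold change of scaled TPM + 1 from parental to resistant cells (horizontal axes) for the tested genes of 4 lists around the kinases and phosphatase, 1 row per gene; PPP1R15A and PPP1R15B are drawn in the 2 lists that hold them. Filled points passed the adjusted threshold of 0.05, and HSPA5 at 1.14 and ATF5 at -3.07 in C17.2 are the extremes.

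Of 8 mRNAs whose translation is known to be raised by eIF2 phosphorylation through upstream open reading frames, 5 fell and 0 rose in C17.2, and 1 fell and 0 rose in C3.2. The median log2 fold change was -0.84 and -0.14, and 13.9% and 6.9% of all genes tested passed as lower. PPP1R15A was among the 5, and the others were ATF4, ATF5, DDIT3 and EPRS. ATF4, the factor whose translation the pathway controls, was at 361 and 337 TPM in parental and 197 and 199 TPM in resistant libraries of C17.2, and at 214 and 222 TPM in parental and 158 and 153 TPM in resistant libraries of C3.2. ATF4 thus fell in both clones, by 0.97 (adjusted p = 3.16e-05, limma) and 0.55 (adjusted p = 0.000875, limma) on the log2 scale. ATF5 was at 221 and 208 TPM in C17.2 parental libraries and between 17.4 and 28.1 TPM in the other 6 libraries, the same split of libraries as PPP1R15A. IBTK and SLC35A4, which keep upstream reading frames of the same kind, had log2 fold changes between -0.02 and 0.18, none past the threshold.

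Of 15 tested ATF4 target genes, 15 fell in C17.2 and 12 fell in C3.2, and 0 rose in either clone. The median log2 fold change was -2.14 and -0.88, beside the same 13.9% and 6.9% of all genes tested. This list, like the others here, was chosen with earlier results of these data known, so the counts are no independent test. Without 1 library, 15 fell in C17.2 and 9 to 12 in C3.2. The list includes DDIT3 (CHOP), a direct activator of PPP1R15A, at 34.6 and 35.4 TPM in parental and 7.20 and 9.66 TPM in resistant libraries of C17.2 (log2 fold change -2.09, adjusted p = 0.000278, limma). DDIT3 in C3.2 was at 11.7 and 11.9 TPM in parental and 9.58 and 6.91 TPM in resistant libraries (-0.55, adjusted p = 0.0640, limma). The largest falls in C17.2 were those of STC2 (-4.05) and CHAC1 (-3.83), and the smallest were those of CEBPB (-1.59) and ATF3 (-1.60). In C3.2 the largest were those of STC2 (-3.15) and CHAC1 (-2.69), and the smallest changes were those of TRIB3 (-0.22) and CEBPB (-0.32), neither past the threshold. PPP1R15A fell beside the 15 targets in C17.2, and its value in C3.2, where 12 of them fell, was 0.09.

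Genes of the other arms of the unfolded protein response, which runs beside PERK, and interferon-stimulated genes, which include PKR by background knowledge, were counted as well. Of 6 genes of the other arms, 4 fell and 0 rose in C17.2 and 1 fell and 1 rose in C3.2, where 27.3% and 11.4% of all genes tested passed in either direction. These counts moved with the processing: over the alternatives 2 to 4 fell in C17.2, and in C3.2 0 to 1 fell and 0 to 1 rose. ATF6B in C17.2 (-0.18, adjusted p = 0.0494, limma) and MBTPS2 in C3.2 (0.25, adjusted p = 0.0497, limma), singled out after their values were seen, each passed in 3 of 8 alternatives. ERN1 (IRE1 alpha) had the largest fall in C17.2, from 10.9 and 9.92 TPM to 1.92 and 2.69 TPM (log2 fold change -1.90, adjusted p = 0.000484, limma). XBP1, the substrate of IRE1 alpha, fell by 0.42 (adjusted p = 0.000941, limma) and 0.26 (adjusted p = 0.0138, limma) in C17.2 and C3.2. Its fall in C3.2 passed in 4 of 8 alternatives and missed the threshold without parental replicate 1 (adjusted p = 0.0891, limma) or parental replicate 2 (adjusted p = 0.0680, limma). Of 9 tested interferon-stimulated genes, 2 fell and 0 rose in C17.2, and 0 rose or fell in C3.2 (limma). In C3.2, 4 of the 9 had an unadjusted p under 0.05, beside 4307 of all 15614 genes tested (limma). The 2 of 9 in C17.2 are near the share of all genes tested, 27.3% in either direction and 13.9% as lower. OAS2 had the largest fall in C17.2 (-0.80, adjusted p = 0.00426, limma). Its level was low, at 2.84 to 7.14 TPM over the 8 libraries.

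The protein-coding genes whose profile over the 8 libraries lay nearest to PPP1R15A, among 8558 candidates, were PLEK, with a root mean square difference of 0.08 on the log2 scale, and TPBG, with 0.14. PLEK had log2 fold changes of -1.41 in C17.2 and 0.06 in C3.2, and TPBG of -1.08 and -0.02, beside -1.26 and 0.09 for PPP1R15A. Nearest to EIF2S1 were CLEC2B (0.03) and CXorf56 (0.03), with log2 fold changes of 0.27 each in C17.2 and of -0.09 and -0.08 in C3.2. These are nearest profiles over 8 libraries that come from only 2 clones.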

How the data were processed

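Total RNA from the 8 libraries was depleted of ribosomal RNA and sequenced. The labels give single-end reads, the methods paired-end. Per the submitters' processing notes, the authors used Trim Galore 0.6.3, STAR 2.7.9a, hg38 and RSEM 1.3.1, and deposited TPM per gene (60754 rows). TPM keeps no depth, so the precision that depth gives is unknown.

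The 15614 genes that reached 1 TPM in any library were tested. Libraries were scaled by trimmed means of log2 ratios (each end cut by 30% for ratios and 5% for means). The 4 groups, mapped by the labels, were fitted in 1 model of log2(scaled TPM + 1) in limma 3.58.1 (R 4.3.3; eBayes with an intensity trend), two-sided, with Benjamini-Hochberg adjustment over all genes tested and a threshold of 0.05. This stands in for the study's limma-voom, which takes counts. The model was tested on simulated data with equal noise for all genes, which does not show how well small changes are found here. Alternatives in scaling, pseudocount, filter, variance model and libraries are in the closing section.

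Named were all 9 genes, any gene of the first 4 lists and, of the lists of ATF4 targets, interferon-stimulated genes and other unfolded protein response genes, the 2 largest and 2 smallest changes per clone plus ATF4, DDIT3, ATF3 and XBP1; 1 further gene is not reported here. The 9 genes and the lists were chosen with earlier results of these data known. Nearest profiles were sought among protein-coding genes with mean scaled TPM of at least 5. Positions are from Gencode release 44. The 2 libraries of a group listed identical TPM for 0.360% to 0.472% of genes, so none was a duplicate. Tables and plots used Python 3.11.15, pandas 2.3.3 and matplotlib 3.10.9.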

Additional observations from a re-analysis of the deposited data

Results flagged for a closer look

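The change of PPP1R15A from parental to resistant cells differed between the clones by the interaction test: the change in C17.2 minus that in C3.2 was -1.35 on the log2 scale (adjusted p = 0.00387, limma), with both resistant libraries lower in C17.2 and overlapping groups in C3.2. The change of EIF2S1 differed by 0.43 in the same test (adjusted p = 0.0390, limma), and over the alternatives this adjusted p ran from 0.0372 to 0.0688. Clone and the number that opens each library title go together and cannot be told apart.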

How the results depend on the processing

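No paired analysis was possible because the labels give no number or batch that ties a resistant library to a parental library. With TPM as deposited, 5 of the 9 genes passed in C17.2 in place of 2; the signs of EIF2AK1 (0.084), EIF2AK4 (0.038) and PPP1R15B (0.051) there, and of EIF2AK1 (0.021) and PPP1R15B (0.052) in C3.2, turned, and the interaction passed for 1 gene. That scaling moved the median of all genes by 0.13 in C17.2, 0.05 in C3.2 and -0.14 between parental clones, and raised the share of calls that were higher from 49.1% to 75.1% in C17.2 and from 39.3% to 57.8% in C3.2, and lowered it from 53.2% to 19.0% between parental clones. With protein-coding TPM, EIF2AK1 turned in C17.2 (0.011) and C3.2 (0.057), PPP1R15B (0.088) and GCN1 (0.010) turned in C3.2, 1 of the 9 genes passed in C3.2, and the share higher was 64.5% in C17.2, 70.2% in C3.2 and 35.7% between parental clones. Quantile normalization turned PPP1R15B in C3.2 (0.015), left 1 gene in the interaction, as did no filter and no intensity trend, and put the share higher in C3.2 at 50.8%. Over all genes, 1773 passed in C3.2, 1167 with no filter and 386 with the libraries of that clone alone; the cause was not tested.

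Leaving out each library in turn, which leaves a group with 1 library assumed to vary like the others, gave 1 to 3 of the 9 genes in C17.2, 0 to 1 in C3.2, 1 to 2 in the interaction and 1 to 4 between parental clones. Over all genes it gave 2398 to 4575 calls in C17.2, 343 to 1820 in C3.2, 561 to 1788 in the interaction and 1591 to 3851 between parental clones. Log2 values ran from -0.15 to 0.0032 for EIF2AK1 in C17.2, and in C3.2 from -0.095 to 0.0079 for EIF2AK1, -0.068 to 0.24 for PPP1R15A, -0.087 to 0.063 for PPP1R15B, -0.00063 to 0.13 for EIF2B5 and -0.20 to 0.022 for GCN1. Of the results tried, 393 kept their direction and side of the threshold, 20 lost and 8 gained a call, and 17 turned. For the interaction and the comparison of parental clones, this tally left out the genes far from the threshold in the main analysis. With 2 libraries a group and unknown depth, small changes could not be resolved.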
